A study of Mus musculus with 56 samples.

Results

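The genes described here are the transcription factor gene Nfe2l2, which encodes NRF2, its inhibitor gene Keap1, and 7 genes that NRF2 is known to switch on: Gclc, Gclm, Gsr, Txnrd1, Srxn1, Nqo1 and Hmox1. They were chosen by name, with earlier results of these data known, and all 9 were found among the 17027 genes of the kidney table. Kidneys came from 56 female C57BL/6J mice, 9 weeks old, that had chow during the day only (daytime-restricted feeding, DRF) or during the night only (nighttime-restricted feeding, NRF) for 7 days, with 12 h of light and 12 h of dark. Before that, all mice had eaten ad libitum for 7 days under the same lights. Kidneys were taken at ZT0, ZT4, ZT8, ZT12, ZT16, ZT20 and ZT24 under each regimen (zeitgeber time, counted in h from the start of the light phase), which gave 14 groups of 4 mice. NRF served as the control regimen. Mice were group housed, and no source used here said which of them shared a cage, so the p-values measure only the spread between these mice.

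NRF2 is made continuously and is kept low by KEAP1, an adaptor that hands it to a ubiquitin ligase. Oxidants and electrophiles modify KEAP1, NRF2 then builds up, pairs with small MAF proteins and binds antioxidant response elements near its target genes. The targets make glutathione, keep thiols reduced, and break down quinones and heme. In the kidney this program is known mainly from protection of the tubule against ischemic and toxic injury.

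Promoter windows of 6 of the 9 genes were found in the RefSeq sequences (GRCm38.p6), each running from 250 bases before the transcription start to 50 bases after it. Gclc, Gsr and Hmox1 had no window. The core of the antioxidant response element was searched on both strands as TGACNNNGC, since it is the sequence through which NRF2 acts. It was found in 4 of the 8 windows of these genes, and in 12.4% of all 32851 windows. The matches are given here with the 9 bases of the core in capitals, read along the strand of the gene, so that the first, the third and the fourth show the core as it reads on the opposite strand.
Gclm: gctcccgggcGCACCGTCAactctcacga
Nfe2l2: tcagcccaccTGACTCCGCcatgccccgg
Srxn1: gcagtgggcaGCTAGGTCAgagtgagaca
Txnrd1: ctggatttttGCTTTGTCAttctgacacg
The Gclm stretch lies at chr3:122245413-122245441 on the plus strand, with the match beginning at base -134 from the start site. The Nfe2l2 stretch lies at chr2:75704885-75704913 on the minus strand, with the match at base -240. The Srxn1 stretch lies at chr2:152105542-152105570 on the plus strand, within the transcribed part, with the match at base 29. The Txnrd1 stretch lies at chr10:82859104-82859132 on the plus strand in 1 of its 3 windows, with the match at base -92. Keap1 and Nqo1 had no match in these windows, and the E-box CACGTG, which clock factors bind, was found in 0 of the 8 windows and in 7.15% of all windows.

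The deposited values were taken back to reads and then to TPM, a level per transcript length on a linear scale, so that levels can be set side by side between genes. All 9 genes took whole read numbers in this step. Over the 56 mice, Gclc stood highest at 363 ± 167 TPM (mean ± SD between mice), followed by Gsr at 174 ± 33.0 TPM and Nfe2l2 at 130 ± 15.98 TPM. Gclm at 119 ± 13.2, Nqo1 at 108 ± 25.7, Srxn1 at 103 ± 12.4, Hmox1 at 86.4 ± 81.5 and Txnrd1 at 79.8 ± 8.17 TPM came next, and Keap1 was lowest at 27.8 ± 1.91 TPM. Gclc exceeded Gsr in 56 of 56 mice and Txnrd1 exceeded Keap1 in 56 of 56, and Gsr exceeded Nfe2l2 in 51 of 56. The neighbours from Nfe2l2 to Txnrd1 overlapped: Nqo1 exceeded Srxn1 in 27 of 56 mice, and Hmox1 exceeded Txnrd1 in 18 of 56. Reads per gene and library ran from 374 for Hmox1 to 32026 for Gclc.

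The libraries held 25.1 to 27.7 M reads of recovered genes. Markers of proximal tubule (7 of 8 with values, summed level 4267 to 6914 TPM) and thick ascending limb (4 of 4, 3220 to 8360 TPM) were high in every library. The summed level of 3 medulla markers ran from 26.0 to 405 TPM and that of 4 adipose markers from 0.212 to 687 TPM. Podocyte markers summed to 207 to 441 TPM, distal convoluted tubule markers to 276 to 531, collecting duct markers to 546 to 1818, endothelial markers to 93.6 to 226, macrophage markers to 122 to 255 and the 3 of 4 liver markers with values to 110 to 499 TPM. The 4 adrenal markers stayed between 3.41 and 6.28 TPM, and the 2 of 6 red blood cell markers with values between 3.88 and 39.2 TPM. In whole tissue, fewer cells of a type and less RNA per cell cannot be told apart.

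**Figure D1:**
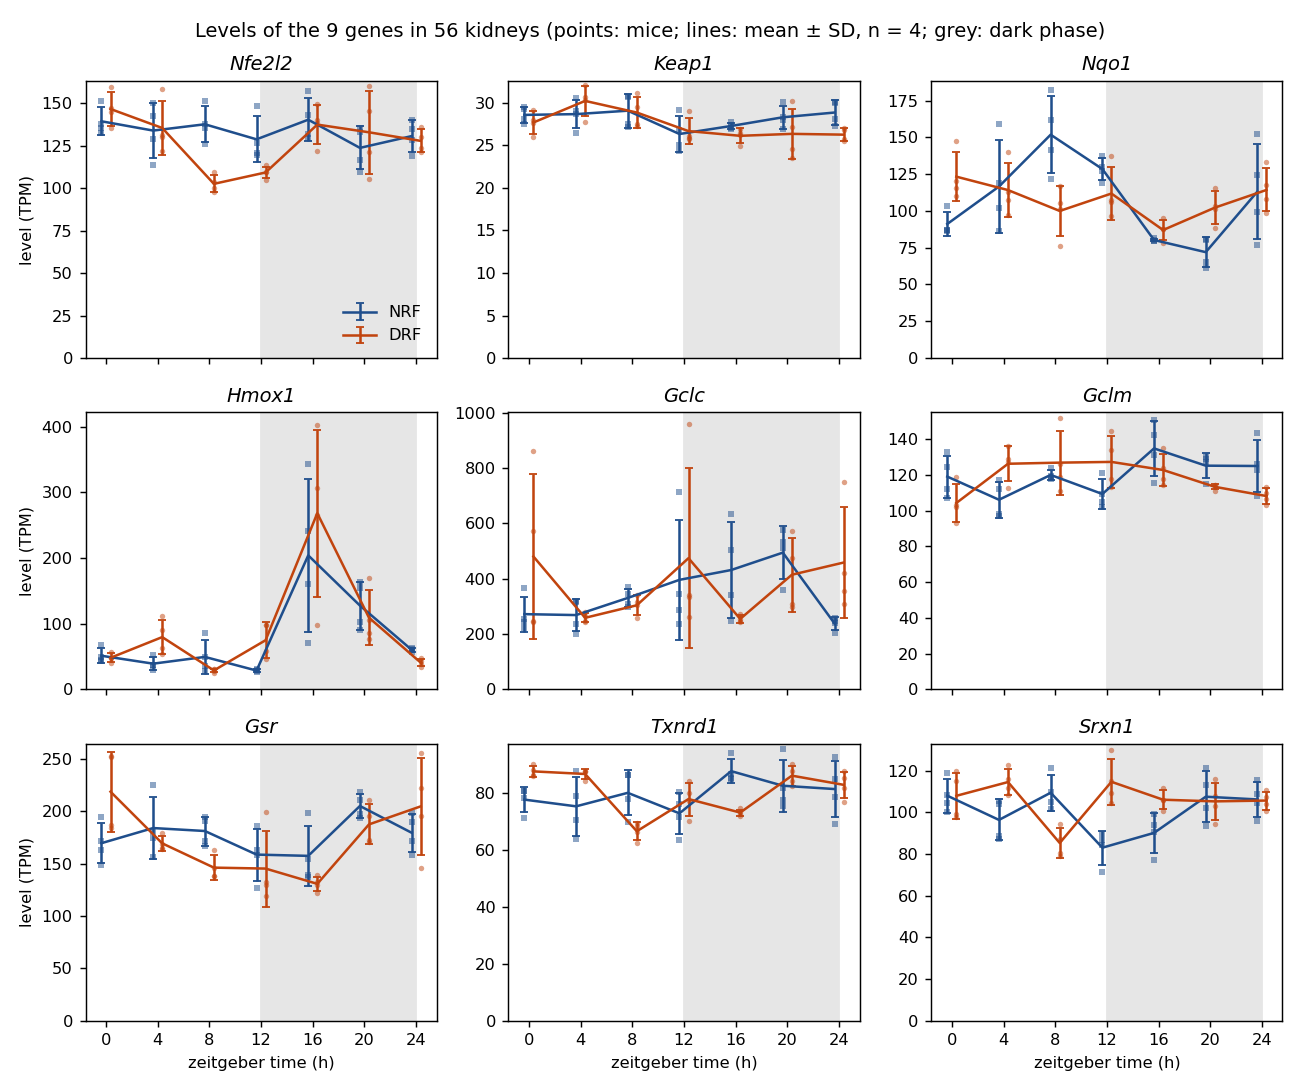
Level of each of the 9 genes (y axis, TPM from 0, a range of its own for each gene) against zeitgeber time (x axis, h) in kidneys of mice under NRF (blue squares) and DRF (red circles). Points are mice, lines join group means with SD (n = 4) and the dark phase is grey. Hmox1 peaked at ZT16 under both regimens, at 204 TPM under NRF and 268 TPM under DRF, while Keap1 group means stayed between 26.1 and 30.2 TPM.

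Rhythms were tested with a cosine of 24 h on log2(TPM + 1), in each regimen on its own 28 mice. An amplitude is the log2 distance from the mean of that cosine to its peak. Under NRF, 5 of the 9 genes were rhythmic (Hmox1, Nqo1, Gclc, Srxn1 and Gclm), where 53.5% of all 11935 genes tested were. Under DRF, 6 were rhythmic (Gsr, Hmox1, Txnrd1, Nfe2l2, Gclm and Keap1), where 34.9% of all genes were. Hmox1 and Gclm were called under both regimens. The rhythm differed between regimens in 5 genes, Nqo1, Gclm, Nfe2l2, Gsr and Txnrd1, where 45.3% of all genes differed.

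The mean over the day, taken over clock times with ZT0 and ZT24 sharing the weight of 1, is called the mesor here. It differed between regimens in none of the 9 genes, where 10.1% of all genes did. By limma, 3 of the 9 had an unadjusted p under 0.05, namely Srxn1 (0.09 ± 0.03 log2 higher under DRF), Nfe2l2 (-0.09 ± 0.04) and Gsr (-0.11 ± 0.05). Their adjusted p-values were 0.0646, 0.103 and 0.181, and the share of all genes under the unadjusted threshold was not computed. The calls of Hmox1 and Nqo1 under NRF, of Hmox1, Gsr and Txnrd1 under DRF and of Nqo1 and Gclm for the difference between regimens stayed past the threshold when any 1 replicate number was left out of every group. The difference was lost for Nfe2l2 without replicate 3 (adjusted p = 0.144), for Gsr without replicates 2 or 4 (0.0761 and 0.368) and for Txnrd1 without any of the 4 (0.0578 to 0.211). The rhythms under NRF were lost for Gclc without replicates 2 or 3 (0.0819 and 0.0821), for Gclm without any of the 4 (0.0517 to 0.259) and for Srxn1 without replicates 1 or 3 (0.0563 and 0.132). Those under DRF were lost for Nfe2l2 without replicate 3 (0.0826), for Keap1 without replicates 1 or 2 (0.275 and 0.185) and for Gclm without replicate 2 (0.0926). The mesor of Srxn1 passed the test under median-of-ratios rescaling, and those of Srxn1 and Nfe2l2 passed it with the medulla marker sum as a covariate.

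**Figure D2:**
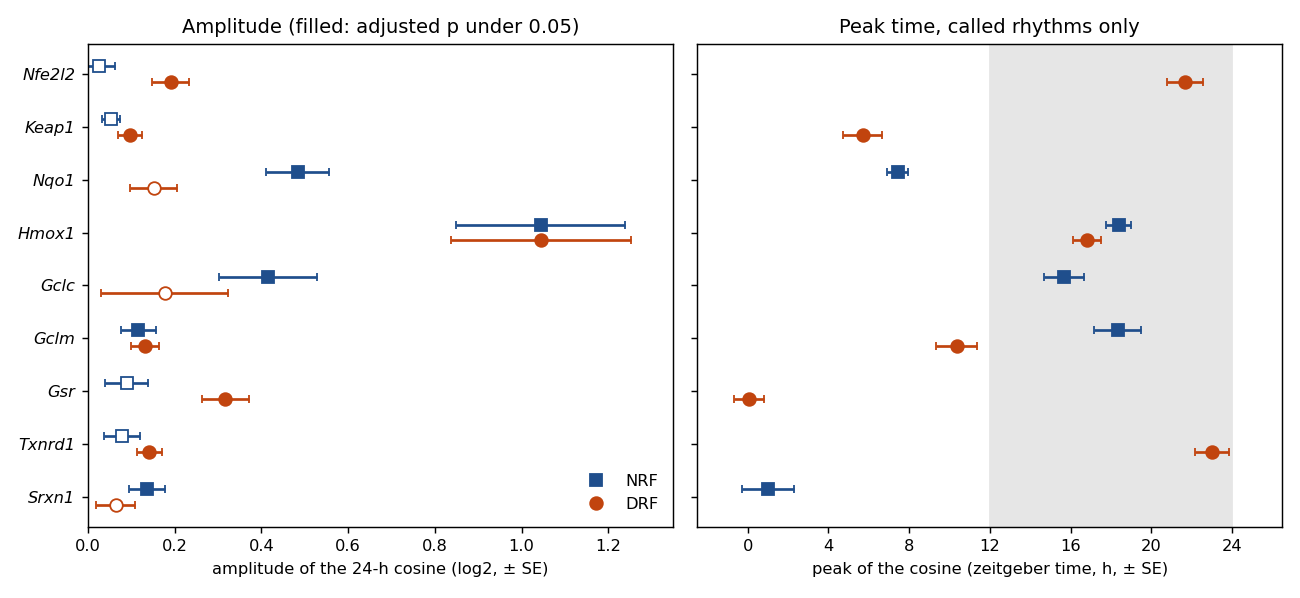
Left, amplitude of the 24-h cosine (x axis, log2 units, ± SE) for each gene under NRF (blue squares) and DRF (red circles), with filled symbols for an adjusted p under 0.05. Right, peak time of the called rhythms (x axis, zeitgeber time in h, ± SE), with the dark phase in grey. The Hmox1 symbols stand at 1.04 under both regimens, and the Gclm peaks stand at ZT18.3 under NRF and ZT10.4 under DRF.

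Hmox1 encodes heme oxygenase 1, which splits heme into biliverdin, iron and carbon monoxide. It had the widest daily range of the 9 genes, 7.11-fold between group means under NRF and 9.29-fold under DRF. At ZT16, in the dark, the 4 NRF mice had 71.3, 160, 241 and 344 TPM, and the 4 DRF mice had 98.3, 265, 403 and 306 TPM. At ZT12, the NRF mice had 26.0, 27.9, 29.6 and 31.2 TPM. All ZT16 mice of both regimens lay above all NRF ZT12 mice, and the spread at ZT16 was the largest of any time point.

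The 24-h amplitude of Hmox1 was 1.04 ± 0.19 (SE) log2 units under NRF (adjusted p = 0.000257) and 1.04 ± 0.21 under DRF (adjusted p = 0.00127). Its cosine peaked at ZT18.4 ± 0.63 under NRF and at ZT16.8 ± 0.69 under DRF, a difference of -1.56 ± 0.93 h. The test of the difference did not pass (adjusted p = 0.367). Under DRF a component of 12 h was also called (amplitude 0.86 ± 0.13, adjusted p = 7.86e-05), where 25.4% of all genes had one. Under NRF the component of 12 h had an amplitude of 0.60 ± 0.14 and did not pass (adjusted p = 0.0882), where 0.662% of all genes passed, and with the medulla marker sum as a covariate it did (adjusted p = 0.0335). By limma, 3 of the 9 genes had an unadjusted p under 0.05 for this component under NRF, namely Hmox1, Srxn1 and Gsr. The share of all genes under that unadjusted threshold was not computed.

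Under DRF the component of 12 h of Hmox1 peaked at ZT4.02 ± 0.27 and again 12 h later, so that ZT12 lies away from its peaks. At ZT4, 4 h into the meal, the DRF mice had 63.2, 111, 53.8 and 90.4 TPM against 37.1, 29.4, 52.5 and 37.8 TPM in the NRF mice, and the groups did not overlap. The difference was 0.98 ± 0.34 log2 units (1.97-fold higher under DRF, adjusted p = 0.0263). At ZT12 the DRF mice had 45.6, 58.2, 98.3 and 97.3 TPM, all above the NRF mice, a difference of 1.28 ± 0.34 (2.43-fold, adjusted p = 0.0052). At ZT8, between these times, the DRF mice were back at 25.7 to 31.2 TPM against 27.6 to 85.7 TPM under NRF.

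Macrophages that clear red cells are a known source of heme oxygenase 1. Of 6 tested macrophage markers, 3 were lower under DRF at ZT4 and 2 at ZT12, where 17.7% and 11.4% of all genes were lower. At these times 0 were higher, where 10.5% and 7.59% of all genes were. A lower mesor was called for 5 of 6, where the mesor of 10.1% of all genes differed in either direction. Their summed level at ZT16 was 151 to 189 TPM under DRF and 170 to 250 TPM under NRF. Cd163 and Spic, which mark red-cell-clearing macrophages, had a mean under 1 TPM. The part of macrophages in the Hmox1 differences was not tested.

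Nqo1 encodes a reductase that takes quinones to hydroquinones, and is a widely used readout of NRF2. Under NRF it was high in the day and low at night. The ZT8 mice had 162, 142, 121 and 182 TPM, and the ZT20 mice had 81.0, 65.1, 61.4 and 80.3 TPM. These groups did not overlap, and their means differed 2.11-fold. The amplitude was 0.48 ± 0.07 under NRF (adjusted p = 1.46e-05), with a peak at ZT7.44 ± 0.52.

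Under DRF the range of Nqo1 was narrower. Group means ran from 87.0 ± 6.96 TPM at ZT16 to 123 ± 16.6 TPM at ZT0, 1.42-fold, and the amplitude of 0.15 ± 0.05 did not pass (adjusted p = 0.0755). The rhythm differed between regimens (adjusted p = 0.000207), with an amplitude ratio of -1.67 on the log2 scale. The 2 curves crossed: Nqo1 was higher under DRF at ZT0 (0.43 ± 0.15, adjusted p = 0.046) and ZT20 (0.50 ± 0.15, adjusted p = 0.018), and lower at ZT8 (-0.60 ± 0.15, adjusted p = 0.00533). At ZT8 the DRF mice had 105, 117, 76.4 and 101 TPM, all below the NRF mice.

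Gclc and Gclm encode the catalytic and the modifier subunit of glutamate-cysteine ligase, the enzyme of the rate-limiting step of glutathione synthesis. Gclm was rhythmic under both regimens with a small amplitude, 0.12 ± 0.04 under NRF (adjusted p = 0.0481) and 0.13 ± 0.03 under DRF (adjusted p = 0.00897). The NRF call was lost with the medulla marker sum as a covariate (adjusted p = 0.0521). Its peak moved from ZT18.3 ± 1.17 under NRF to ZT10.4 ± 1.04 under DRF, a shift of -7.99 ± 1.56 h (adjusted p of the differential rhythm = 0.00255). Food was present at the peak under either regimen. At ZT4 the DRF mice had 129, 113, 136 and 127 TPM and the NRF mice 98.1, 112, 117 and 97.2 TPM, a difference of 0.25 ± 0.09 (adjusted p = 0.0293) with 1 NRF mouse inside the DRF range. The summed thick ascending limb markers, with which Gclm had r = 0.53 within groups over the 56 mice, ran from 3261 to 4936 TPM under DRF and from 4249 to 5606 TPM under NRF at ZT4, where 1 of the 4 markers was higher under DRF. Of these 4 markers, 0 were rhythmic under NRF, 3 under DRF and 2 differed in rhythm. Over all genes, 53.5% were rhythmic under NRF, 34.9% under DRF and 45.3% differed, and at ZT4 10.5% were higher under DRF. The part of these markers in the difference and in the shift of Gclm was not tested.

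Gclc spread far more between mice than Gclm. In the DRF ZT0 group the 4 mice had 573, 246, 243 and 860 TPM, and in the DRF ZT12 group 262, 332, 960 and 342 TPM. In other groups the mice lay close together, as at DRF ZT16 with 274, 244, 254 and 246 TPM. Under NRF Gclc was rhythmic (amplitude 0.42 ± 0.11, adjusted p = 0.0097, peak at ZT15.7 ± 0.996), with the highest group mean of 494 ± 95.2 TPM at ZT20 and the lowest of 238 ± 23.4 TPM at ZT24.

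Under DRF the Gclc amplitude was 0.18 ± 0.15 and did not pass (adjusted p = 0.586), and the difference between regimens did not pass either (adjusted p = 0.118). None of the 7 time points passed for Gclc. The largest difference, at ZT24, was 0.86 ± 0.33 log2 units (1.81-fold, adjusted p = 0.0698), with 307, 355, 749 and 422 TPM under DRF against 241, 205, 247 and 260 TPM under NRF. With median-of-ratios rescaling it was 0.90 (adjusted p = 0.0477).

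Gsr encodes glutathione reductase, which returns oxidized glutathione to its reduced form. Under DRF it was highest at ZT0, with 252, 185, 187 and 253 TPM, and lowest at ZT16, with 133, 139, 122 and 130 TPM, and these groups did not overlap. Its amplitude was 0.32 ± 0.05 under DRF (adjusted p = 0.000265, peak at ZT0.06 ± 0.74) and 0.09 ± 0.05 under NRF (adjusted p = 0.288). The rhythms differed (adjusted p = 0.0323), a call lost with the deposited values (adjusted p = 0.0812). No single time point passed for Gsr, the differences running from -0.31 ± 0.14 at ZT8 to 0.36 ± 0.14 at ZT0, and with median-of-ratios rescaling the ZT0 difference passed (0.41, adjusted p = 0.0265).

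Txnrd1 encodes the cytosolic thioredoxin reductase, and Srxn1 encodes sulfiredoxin, which repairs overoxidized peroxiredoxins. Txnrd1 was rhythmic under DRF (amplitude 0.14 ± 0.03, adjusted p = 0.00128, peak at ZT23.0 ± 0.85) and did not pass under NRF (0.08 ± 0.04, adjusted p = 0.263). The NRF rhythm did pass with median-of-ratios rescaling (0.12, adjusted p = 0.0353) and with log2(CPM + 1) (0.12, adjusted p = 0.0305), so that the contrast between regimens in the call depends on the scaling. The difference in rhythm was near the threshold (adjusted p = 0.0492) and was lost with the medulla marker sum as a covariate (adjusted p = 0.0866) and with the deposited values (0.111). At ZT8 the DRF mice had 69.3, 68.2, 62.2 and 66.3 TPM, all below the NRF mice with 86.3, 77.8, 86.1 and 69.7 TPM (-0.26 ± 0.08, adjusted p = 0.0184), a call lost with log2(CPM + 1) (adjusted p = 0.0501) and with the deposited values (0.122). At ZT16 the DRF mice lay at 72.0 to 74.5 TPM and the NRF mice at 84.7 to 93.9 TPM (-0.26 ± 0.08, adjusted p = 0.0379). That call was lost with median-of-ratios rescaling (adjusted p = 0.0521), log2(CPM + 1) (0.063) and the deposited values (0.184). At ZT4 Txnrd1 was higher under DRF (0.21 ± 0.08, adjusted p = 0.0392), with NRF mice from 63.9 to 87.7 TPM around the DRF mice at 84.0 to 87.6 TPM. At ZT0 the difference of Txnrd1 passed only with median-of-ratios rescaling (0.23, adjusted p = 0.0208) and log2(CPM + 1) (0.23, adjusted p = 0.0228).

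Srxn1 turned from lower to higher within 4 h. At ZT8 the DRF mice had 87.3, 94.5, 79.0 and 80.3 TPM, all below the NRF mice with 105, 110, 101 and 121 TPM (-0.36 ± 0.09, adjusted p = 0.00281). At ZT12 the DRF mice had 104, 115, 109 and 130 TPM, all above the NRF mice with 89.7, 86.7, 84.4 and 71.3 TPM (0.46 ± 0.09, 1.38-fold, adjusted p = 0.000111). Srxn1 was rhythmic over 24 h under NRF (0.14 ± 0.04, adjusted p = 0.0218, and 0.0534 with median-of-ratios rescaling), whereas under DRF the cosine of 24 h did not pass (0.06 ± 0.04, adjusted p = 0.469) and the component of 12 h did (0.14 ± 0.04, adjusted p = 0.0217). The latter call was lost without replicates 2, 3 or 4 of every group (0.0702 to 0.147). The test of the difference between the 24-h rhythms did not pass (adjusted p = 0.171), and with the medulla marker sum as a covariate it did (adjusted p = 0.0492). At ZT16 the difference of Srxn1 passed with median-of-ratios rescaling (0.28, adjusted p = 0.0471) and with the medulla covariate (0.28, adjusted p = 0.0133), and not otherwise with all mice in the fit. Within groups, Srxn1 had r = -0.56 with the summed thick ascending limb markers and -0.44 with the medulla markers. With distal convoluted tubule, podocyte and proximal tubule markers r was 0.51, 0.48 and 0.46. Apart from the medulla covariate, the part of these markers in the Srxn1 differences was not tested.

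Nfe2l2 itself dipped in the second part of the day under DRF. At ZT8 the DRF mice had 97.7, 103, 99.9 and 109 TPM, all below the NRF mice with 138, 126, 135 and 152 TPM, a difference of -0.42 ± 0.09 (0.748 of the NRF level, adjusted p = 0.00131). At ZT12 the DRF mice had 109, 113, 105 and 109 TPM and the NRF mice 149, 121, 126 and 119 TPM, which did not overlap but did not pass (-0.23 ± 0.09, adjusted p = 0.0791, and 0.00731 with median-of-ratios rescaling). Under NRF no rhythm of Nfe2l2 was called (amplitude 0.03 ± 0.04, adjusted p = 0.843), and under DRF it had an amplitude of 0.19 ± 0.04 (adjusted p = 0.0038) with a peak at ZT21.7 ± 0.90. The rhythms differed (adjusted p = 0.0071), and because the NRF amplitude was smaller than its SE no phase shift is given.

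A component of 12 h was called for Nfe2l2 under DRF (0.13 ± 0.04, adjusted p = 0.041), and was lost without replicates 1, 2 or 3 of every group (0.0661 to 0.31). At ZT8 the collecting duct markers summed to 1320 to 1567 TPM under DRF and 786 to 1300 TPM under NRF. Of these, 2 of 7 were higher under DRF, as was 1 of 4 endothelial markers, where 5.81% of all genes were higher. In either list 0 were lower, where 9.93% of all genes were, and Nfe2l2 was lower. Of the 7 collecting duct markers, 3 were rhythmic under NRF, 4 under DRF and 4 differed in rhythm. Of the 4 endothelial markers 4, 0 and 3 did, where 53.5%, 34.9% and 45.3% of all genes did. Within groups, Nfe2l2 rose with both lists, with r = 0.63 for the summed collecting duct markers and r = 0.69 for the summed endothelial markers. The part of these markers in the ZT8 difference and in the rhythms of Nfe2l2 was not tested. With the medulla marker sum as a covariate the ZT12 difference of Nfe2l2 was -0.25 log2 units (adjusted p = 0.0295).

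Of the 9 genes, Keap1 had the smallest ratio of highest to lowest group mean in either regimen, 1.10-fold under NRF and 1.16-fold under DRF, though not the smallest amplitude. Its amplitude was 0.05 ± 0.02 under NRF (adjusted p = 0.107) and 0.10 ± 0.03 under DRF (adjusted p = 0.0207), where the highest group mean was 30.2 ± 1.81 TPM at ZT4 and the lowest 26.1 ± 0.86 TPM at ZT16. No time point passed for Keap1, whereas with median-of-ratios rescaling ZT4 (0.14, adjusted p = 0.0328) and ZT20 (-0.16, adjusted p = 0.0231) did, as did its differential rhythm (adjusted p = 0.0118). The differences between regimens ran from -0.13 ± 0.06 at ZT24 to 0.07 ± 0.06 at ZT4.

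**Figure D3:**
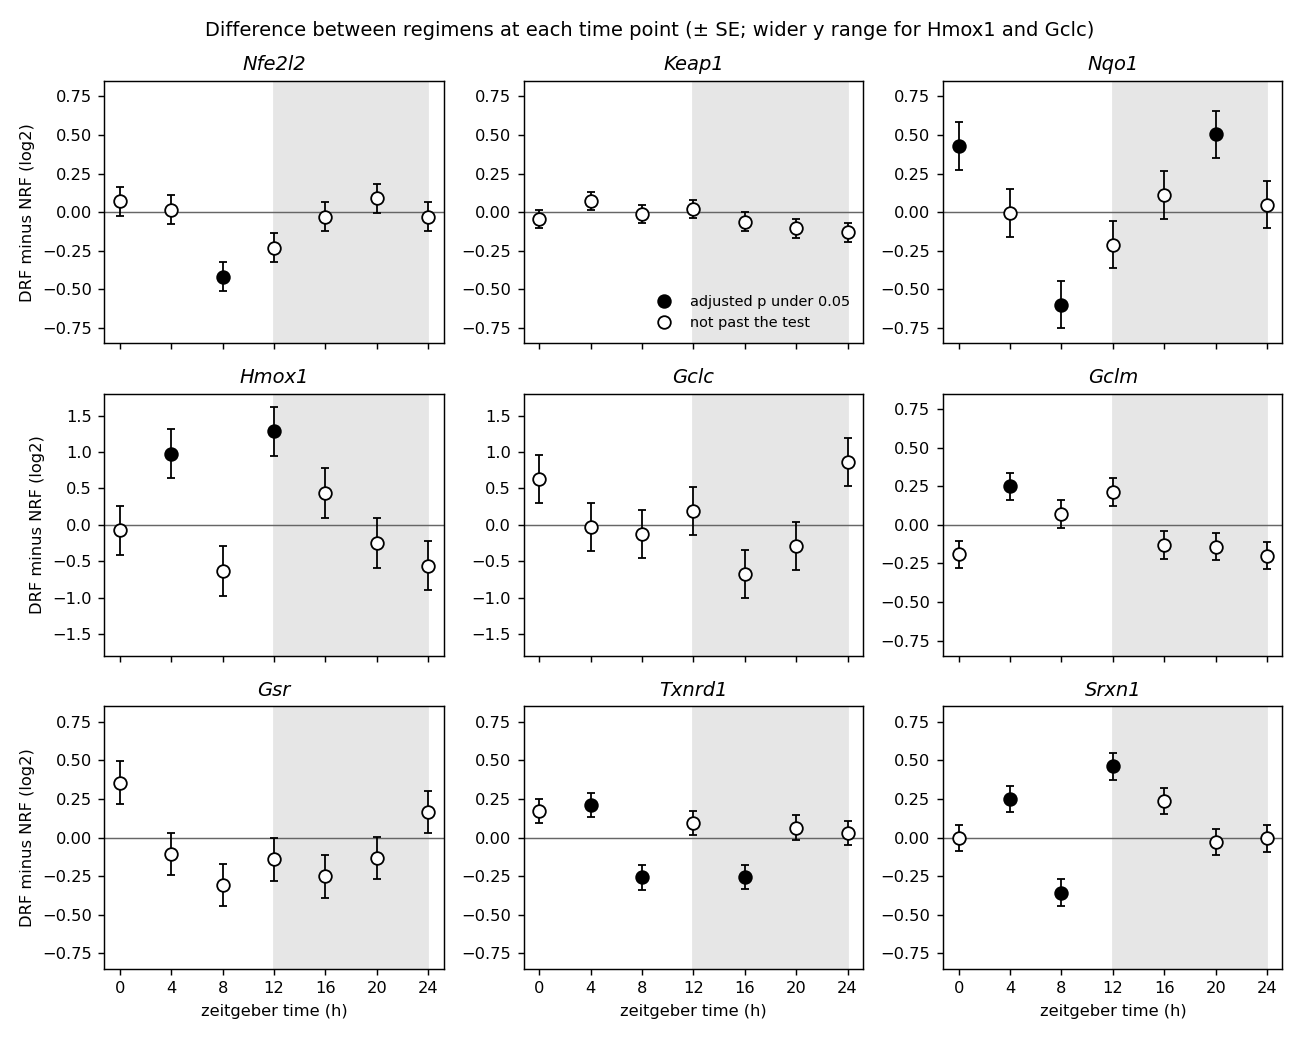
Difference DRF minus NRF (y axis, log2 of TPM + 1, ± SE, 4 mice against 4) at each zeitgeber time (x axis, h) for the 9 genes, with the dark phase in grey. Filled circles have an adjusted p under 0.05, and Hmox1 and Gclc have a wider y range. At ZT8 the 4 filled points, Nfe2l2, Nqo1, Txnrd1 and Srxn1, lie below 0, and at ZT4 the 4 filled points, Hmox1, Gclm, Txnrd1 and Srxn1, lie above it.

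Counted over the day, the 9 genes gave 13 calls among 63 comparisons of DRF with NRF at the same clock time. At ZT4, 4 of 9 were higher under DRF and 0 lower, where 10.5% of all genes were higher and 17.7% lower. At ZT8, 0 of 9 were higher and 4 lower, where 5.81% of all genes were higher and 9.93% lower. At ZT12, 2 were higher and 0 lower (7.59% and 11.4% of all genes), and at ZT0 1 was higher and 0 lower (7.16% and 11.3%). At ZT16, 0 were higher and 1 lower (2.18% and 3.78%), and at ZT20 1 was higher and 0 lower (11% and 6.31%). At ZT24 none passed in either direction, where 4.92% of all genes were higher and 10.5% lower. By limma, 3 of the 9 had an unadjusted p under 0.05 at ZT24, namely Keap1, Gclc and Gclm, and the share of all genes under it was not computed. The median difference of the 9 genes was 0.07 at ZT4 and -0.31 at ZT8, beside -0.05 for all genes at both times. With median-of-ratios rescaling, the share of all calls that were higher under DRF went from 37.3% to 53.7% at ZT4 and from 36.9% to 47.3% at ZT8.

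The calls at ZT8 for Nfe2l2, Nqo1 and Srxn1 and at ZT12 for Hmox1 and Srxn1 stayed past the threshold when any 1 of the 8 mice was left out. The others did not. The call of Nqo1 at ZT0 was lost without DRF replicates 2, 3 or 4 or NRF replicates 1, 2 or 3 (adjusted p 0.0585 to 0.178), and at ZT20 without DRF replicate 4 or NRF replicates 2 or 3 (0.0565 to 0.0727). At ZT4 the call was lost for Hmox1 without DRF replicates 2 or 4 or NRF replicates 1, 2 or 4 (0.0516 to 0.11), for Gclm without DRF replicates 1 or 3 or NRF replicates 1 or 4 (0.0705 to 0.109) and for Srxn1 without replicates 1 or 2 of DRF or 2 or 4 of NRF (0.0547 to 0.0923). For Txnrd1 it was lost at ZT4 without any DRF replicate or NRF replicates 2 or 4 (0.0514 to 0.193, the difference going down to 0.14 without NRF replicate 2), at ZT8 without DRF replicate 3 or NRF replicates 1 or 3 (0.0708 to 0.0759), and at ZT16 without any mouse but NRF replicate 1 (0.0558 to 0.131).

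The same mice can be compared at matched meal time, since food was present from ZT0 to ZT12 under DRF and from ZT12 to ZT24 under NRF. Each DRF time was set against the NRF time 12 h away, with ZT0 and ZT24 pooled. These comparisons use the same groups as those at clock time and are not independent of them. Of 54 comparisons 17 passed. From the start of the meal in steps of 4 h, 3, 3, 5, 1, 3 and 2 of the 9 genes passed, where 10.2%, 17%, 14.1%, 17.7%, 33.3% and 12.3% of all genes did. Only 4 of the 17 calls, Srxn1 at the start, Hmox1 and Txnrd1 at 8 h and Hmox1 at 16 h, stayed past the threshold whichever replicate number was left out of every group.

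Hmox1 parted most by meal time. At 16 h after food was given, which is ZT16 under DRF and ZT4 under NRF, it was 6.08-fold higher under DRF (2.60 ± 0.34 log2 units, adjusted p = 5.9e-08), where the median over all genes was -0.10 and moved to 0.00 with median-of-ratios rescaling. At 20 h it was also higher under DRF (1.19 ± 0.34, adjusted p = 0.0144). At 4 h and 8 h it was lower under DRF, by -1.19 ± 0.34 (adjusted p = 0.0105) and -2.07 ± 0.34 (adjusted p = 1.75e-05). The call at 4 h was lost without replicates 3 or 4 of every group (0.237 and 0.0886) and the one at 20 h without replicates 2, 3 or 4 (0.0628 to 0.126). At the start of the meal and at its end Hmox1 did not pass.

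Gclm passed at none of the 6 matched meal times, where 10.2% to 33.3% of all genes passed, and its differences ran from -0.09 ± 0.09 to 0.21 ± 0.09. The latter, at 16 h, had an adjusted p of 0.0615 and was 0.32 under median-of-ratios rescaling (adjusted p = 0.00613). That difference also passed with log2(CPM + 1) (adjusted p = 0.00595), the deposited values (0.0131) and the replicate block (0.0416). Nqo1 passed at 4 h (0.49 ± 0.15, adjusted p = 0.0212) and 8 h (0.46 ± 0.15, adjusted p = 0.0357), where it was higher under DRF. It was lower at 16 h (-0.38 ± 0.15, adjusted p = 0.0498), a call lost under rescaling (adjusted p = 0.159), and at 20 h (-0.56 ± 0.15, adjusted p = 0.0115). The 4 calls of Nqo1 were each lost without 3 of the 4 replicate numbers, namely 1, 2 and 3 at 4 h and 16 h and 1, 2 and 4 at 8 h and 20 h (0.0599 to 0.347).

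Srxn1 was higher under DRF at the start of the meal (0.36 ± 0.07, adjusted p = 0.000489) and at 4 h (0.35 ± 0.09, adjusted p = 0.00316), and lower at 8 h (-0.33 ± 0.09, adjusted p = 0.00617). Gsr was higher at the start (0.40 ± 0.12, adjusted p = 0.02) and lower at 8 h (-0.49 ± 0.14, adjusted p = 0.0117) and 16 h (-0.48 ± 0.14, adjusted p = 0.00567). Txnrd1 was higher at the start (0.23 ± 0.07, adjusted p = 0.0212) and lower at 8 h (-0.30 ± 0.08, adjusted p = 0.00561). Nfe2l2 was lower at the end of the meal (-0.30 ± 0.08, adjusted p = 0.0064), and at 8 h its difference was -0.26 ± 0.09 (adjusted p = 0.0501). The latter passed with a pseudocount of 0.1 TPM (adjusted p = 0.0495), a minimum mean of 5 TPM (0.0467), median-of-ratios rescaling (0.000485), log2(CPM + 1) (0.000358), the deposited values (0.00636), the medulla covariate (0.0235) and without replicate 4 (0.0357). Neither Keap1 nor Gclc passed at any meal time. With the medulla covariate Keap1 passed at 16 h (-0.16, adjusted p = 0.0226) and Gclc at the end of the meal (0.73, adjusted p = 0.0487), and with the deposited values Keap1 passed at 20 h (adjusted p = 0.0412). At 16 h Srxn1 passed with rescaling (0.25, adjusted p = 0.0263), log2(CPM + 1) (0.0238), the deposited values (0.0364) and the medulla covariate (0.0434), and Nfe2l2 with rescaling (0.15, adjusted p = 0.0412) and log2(CPM + 1) (0.16, adjusted p = 0.0214). The calls at the start were lost for Gsr and Txnrd1 without replicates 2, 3 or 4 of every group (0.0553 to 0.251). Those of Srxn1 were lost at 4 h without replicate 3 (0.0744) and at 8 h without replicate 1 (0.071). Those of Gsr were lost at 8 h without replicates 2 or 4 (0.0961 and 0.0859) and at 16 h without replicate 1 (0.0589), and that of Nfe2l2 was lost without replicate 3 (0.0584).

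**Figure D4:**
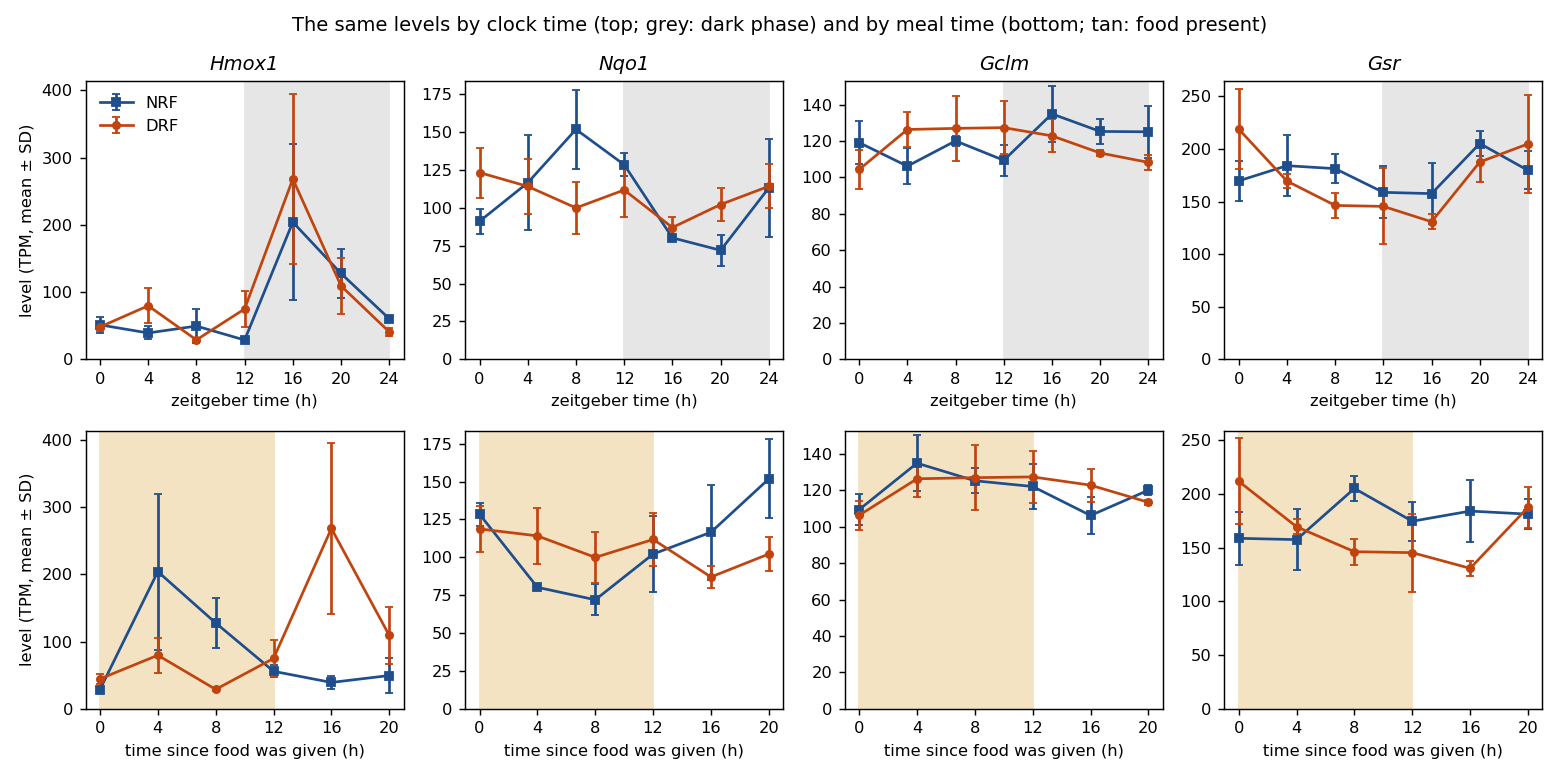
Levels (y axis, TPM, mean ± SD) of Hmox1, Nqo1, Gclm and Gsr under NRF (blue squares) and DRF (red circles), by zeitgeber time in h (top row, dark phase in grey, n = 4) and by hours since food was given (bottom row, food present in tan, n = 4, or 8 where ZT0 and ZT24 fall together). The Hmox1 peaks coincide by clock time and stand 12 h apart by meal time. Gclm passed at none of the 6 matched meal times, where 10.2% to 33.3% of all genes passed, and at 16 h it passed with median-of-ratios rescaling.

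The ZT24 groups repeat the clock time of the ZT0 groups 24 h later. None of the 9 genes differed between them under either regimen, where 67 genes (0.561%) did under NRF and 0 under DRF. By limma, 1 of the 18 comparisons had an unadjusted p under 0.05, Nfe2l2 under DRF (-0.20 ± 0.09), and the share of all genes under it was not computed. Nqo1 was 91.1 ± 8.26 TPM at NRF ZT0 and 113 ± 32.5 TPM at NRF ZT24, and the difference between regimens that was called at ZT0 was 0.05 ± 0.15 at ZT24 (adjusted p = 0.884).

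Mice of the same group also differed from each other, and some of the 9 genes did so together. Over 36 pairs of genes, deviations of log2 levels from the group mean were correlated over the 56 mice, with p from 100000 permutations of mice within groups. For 4 pairs both Pearson's r and Spearman's rho passed after adjustment over the 36 pairs, and all 4 were positive. Gclc and Gsr had r = 0.72 (permutation p = 8e-05, adjusted 0.00132) and rho = 0.61 (permutation p = 0.00034, adjusted 0.00408), and without the 2 mice farthest from the median of Gclc r was 0.66. Both regimens showed it, with r = 0.64 under NRF and 0.78 under DRF.

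Nqo1 and Gclm had r = 0.60 (permutation p = 4e-05, adjusted 0.00132) and rho = 0.60 (permutation p = 1e-05, the smallest that these permutations can give, adjusted 0.00036), with 0.54 without the 2 farthest mice. Keap1 and Txnrd1 had r = 0.54 (permutation p = 0.00011, adjusted 0.00132) and rho = 0.55 (permutation p = 0.00033, adjusted 0.00408), with 0.56 without the 2 farthest mice. Txnrd1 and Srxn1 had r = 0.49 (permutation p = 0.00214, adjusted 0.0193) and rho = 0.42 (permutation p = 0.00662, adjusted 0.0477), with 0.43 without the 2 farthest mice and 0.15 under DRF alone. With the medulla markers regressed out the 4 values of r were 0.73, 0.60, 0.62 and 0.50, and with the thick ascending limb markers regressed out they were 0.75, 0.65, 0.55 and 0.57.

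The pair Gclc and Srxn1 went the other way (r = -0.46, permutation p = 0.00597, adjusted 0.043, and rho = -0.43, permutation p = 0.00845, adjusted 0.0507), with -0.44 without the 2 farthest mice. With the thick ascending limb markers, with which Gclc had r = 0.56 and Srxn1 r = -0.56, regressed out it was -0.20. Gsr and Txnrd1 also passed on 1 coefficient alone, with rho = 0.43 (permutation p = 0.0033, adjusted 0.0297) and r = 0.36 (permutation p = 0.0142, adjusted 0.0717), and r was 0.30 without the 2 farthest mice. None of the 8 pairs that hold Hmox1 passed, nor did any of the 8 that hold Nfe2l2. Among the latter, Nfe2l2 and Srxn1 had r = 0.34 (adjusted permutation p = 0.0958), with 0.63 under NRF and 0.003 under DRF. With the medulla markers regressed out r was 0.59, and with the thick ascending limb markers 0.47, values that were not tested.

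**Figure D5:**
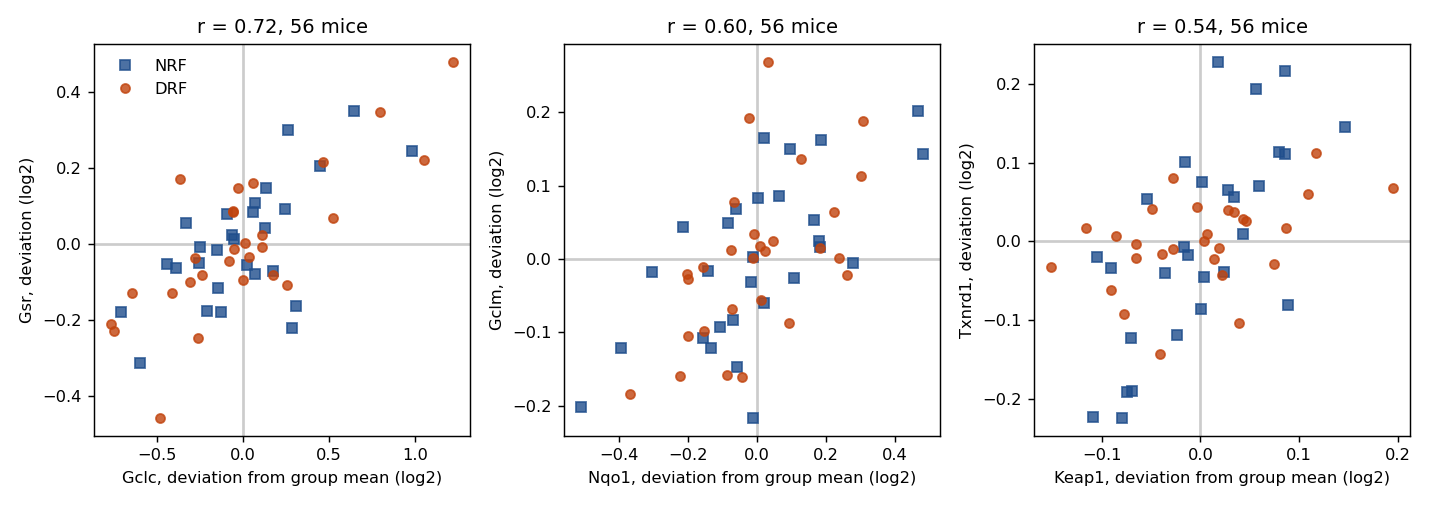
Deviation of each mouse from its group mean (log2 of TPM + 1) for Gsr against Gclc, Gclm against Nqo1 and Txnrd1 against Keap1 (x axis named under each panel), with NRF as blue squares and DRF as red circles, 56 mice in each panel. All 3 clouds slope upward, with r of 0.72, 0.60 and 0.54.

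The genes with the daily profile closest to each of the 9 were named by Pearson's r of the 14 group means on the log2 scale, as a description. Closest to Gclm were Ndufaf4 (r = 0.92), Chac2 (0.92) and Ube2k (0.91), and closest to Nqo1 were Pdcd6, Alkbh3 and Fibp (each 0.93). Closest to Hmox1 were Sh3pxd2a (0.87), Col13a1 (0.86) and Ccdc92 (0.85), and to Gsr Ngfr (0.94), Wsb1 and Plpp5 (each 0.90). For Nfe2l2 they were Syngr4 (0.89), Ubtf (0.86) and Atg12 (0.84), and for Keap1 Psmg4 (0.90), Coa3 (0.89) and Ddx41 (0.88). For Gclc they were Tprg (0.88), Tet2 (0.86) and Ccl28 (0.84), for Txnrd1 Igf2bp2 (0.83), Slc16a13 and Gpatch4 (each 0.82), and for Srxn1 Tspan33 (0.84), Coil (0.80) and Srsf3 (0.78). No pair of the 9 was among these.

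The wider pathway was read from 7 lists. Over all genes tested, 53.5% were rhythmic under NRF and 34.9% under DRF, 45.3% differed in rhythm, and at ZT4 10.5% were higher and 17.7% lower under DRF. Of 10 tested regulators of NRF2, 5 were rhythmic under NRF, 4 under DRF and 5 differed in rhythm, shares of 50%, 40% and 50%. At ZT4, 6 of the 10 were lower under DRF and 0 higher, where 17.7% of all genes were lower, with a median difference of -0.17 beside -0.05 for all genes. Sqstm1, an autophagy receptor that can draw KEAP1 away from NRF2, peaked at ZT7.81 under NRF (amplitude 0.19) and at ZT22.2 under DRF (0.26, adjusted p of the difference = 7.22e-11). Mafk, a small MAF partner of NRF2, peaked at ZT7.07 under NRF (0.25, adjusted p of the difference = 0.000185), and its DRF rhythm did not pass (adjusted p = 0.173).

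Of 23 other NRF2 targets tested, 12 were rhythmic under NRF (52.2%, beside 53.5% of all genes), 6 under DRF (26.1% beside 34.9%) and 8 differed (34.8% beside 45.3%). Blvra, which encodes the biliverdin reductase that acts after heme oxygenase, peaked at ZT8.92 under NRF (amplitude 0.32) and at ZT2.23 under DRF (0.14, adjusted p of the difference = 4.05e-06). Fech, the ferrochelatase that completes heme, peaked at ZT9.47 under NRF (0.19, adjusted p of the difference = 0.000197), and its DRF rhythm did not pass (adjusted p = 0.196). Of 12 tested genes of glutathione synthesis and turnover, 6 were rhythmic under NRF (50%), 5 under DRF (41.7%) and 5 differed (41.7%). Chac2, a glutathione-degrading enzyme, peaked at ZT18.0 under NRF and ZT10.3 under DRF (adjusted p of the difference = 0.000183). Its relative Chac1, with group means of 1.01 to 6.48 TPM, peaked at ZT18.8 under NRF (adjusted p of the difference = 3.35e-05), and its DRF rhythm did not pass (adjusted p = 0.053).

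Among glutathione peroxidases, glutaredoxins and related enzymes, 5 of 12 were rhythmic under NRF (41.7%, beside 53.5% of all genes), 6 under DRF (50% beside 34.9%) and 5 differed (41.7% beside 45.3%). Glo1, the glyoxalase that uses glutathione to clear methylglyoxal, peaked at ZT1.57 under NRF (adjusted p of the difference = 3.11e-05) and did not pass under DRF (adjusted p = 0.23), and Glrx, a glutaredoxin, peaked at ZT2.35 under NRF and ZT11.0 under DRF (adjusted p of the difference = 8.75e-05). Of 16 glutathione S-transferases tested, 6 were rhythmic under NRF (37.5%), 2 under DRF (12.5%) and 4 differed (25%), each below the share of all genes. Gstt2 ran from 59.1 to 128 TPM under NRF (peak at ZT10.1) and from 65.4 to 86.6 TPM under DRF, where no rhythm was called (adjusted p = 0.274, and 7.47e-09 for the difference), and Gstm4 peaked at ZT6.69 under NRF and ZT2.52 under DRF (5.2e-07). These transferases are close relatives of each other, and reads of shared stretches could have been given to either.

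Of 16 genes of the thioredoxin and peroxiredoxin system, 8 were rhythmic under NRF (50%, beside 53.5% of all genes), 5 under DRF (31.2% beside 34.9%) and 5 differed (31.2% beside 45.3%). At ZT4, 5 were higher and 3 lower under DRF, where 10.5% of all genes were higher and 17.7% lower. Txnip, which encodes the thioredoxin inhibitor that glucose induces, peaked at ZT7.88 under NRF (amplitude 0.95) and at ZT19.1 under DRF (0.56, adjusted p of the difference = 3.98e-12). Txnrd3, a further thioredoxin reductase, peaked at ZT6.01 under NRF and ZT1.34 under DRF (adjusted p of the difference = 0.000179). Of superoxide dismutases, their copper chaperone and catalase, 3 of 5 were rhythmic under NRF (60%), 1 under DRF (20%) and 3 differed (60%). Sod2, the mitochondrial dismutase, peaked at ZT20.2 under NRF and ZT14.7 under DRF (adjusted p of the difference = 0.00459), and Sod1, the cytosolic one, peaked at ZT17.7 under NRF (adjusted p of the difference = 0.00717) and did not pass under DRF (adjusted p = 0.231).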

How the data were processed

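RNA of 56 kidneys had been sequenced as poly(A) libraries on BGISEQ-500, paired ends of 100 bases. The submitters' processing notes name HISAT2, Bowtie2 and RSEM and the builds mm10 and GRCm38.p6, without versions or roles, and the annotation was not given in the sources used here. The authors named the deposited values TPM, but they are a score: log2(CPM + 1) of a gene divided by a length and scaled to nearly the same sum in each sample (999145 to 999753). Reads were recovered from that score for 89.4% of 17027 genes. Exon lengths of GENCODE M21 gave whole reads for 14122 genes, and a length searched to make the values whole did so for 1077. A further 16 genes had too many reads to judge and kept the annotated length. Of the values, 99.64% were whole within 0.1 read, but genes were chosen for mostly whole values, so this share is no independent check. The recovered genes held 25.1 to 27.7 M reads a library, which is not the sequencing depth. The fitted effective library sizes were 24.8 to 28.9 M. TPM on a linear scale was computed from the recovered reads. Genes with fractional reads (1382) or no length (430) were not tested. Columns were matched to samples by name, and 1 of the 4 NRF ZT24 columns carried a number that no label has, was assigned to its group only and is called the library with no number.

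Genes with a mean of at least 1 TPM (11935) were tested on log2(TPM + 1) in R 4.3.3 by limma 3.58.1, whose prior variance followed the mean level: moderated F tests of cosines of 24 h and 12 h in each regimen and of the regimen by cosine interaction, and moderated contrasts of the 14 groups. Adjusted p-values are Benjamini-Hochberg over all genes tested in a comparison, with a threshold of 0.05. A fold change on the log2(TPM + 1) scale understates the change of low genes. The study used MetaCycle and CircaCompare, and linear cosine models stand in for them here. The fits were tested on simulated data. The members and the lists were chosen with earlier results of these data known. Named from the lists were the 2 genes of each with the smallest adjusted p of the differential rhythm among those called, and beside each of the 9 genes the 3 with the most similar group means. Correlations between genes used Python 3.11.15. Alternatives were the pseudocount, the filter, rescaling, the deposited values as they are, a replicate block and leaving out mice. A covariate of medulla markers, log2(CPM + 1) and leaving out the library with no number were added after seeing the data. Promoters were read from RefSeq windows.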

Additional observations from a re-analysis of the deposited data

Results flagged for a closer look

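Within the 126 groups of 4 mice (9 genes, 14 groups), 5 had a mouse whose gap to the nearest of the others, as a share of the group's range, exceeded Dixon's 95% limit for 4 values, which chance alone passes in about 1 group in 20. The same mouse, DRF ZT12 replicate 3, gave 3 of the 5: it was highest for Gclc at 960 TPM against 262 to 342 TPM in the others, for Gsr at 199 TPM against 120 to 133 TPM, and for Keap1 at 29.0 TPM against 25.7 to 26.1 TPM. NRF ZT0 replicate 4 was highest for Nqo1 at 103 TPM against 86.5 to 87.3 TPM. DRF ZT4 replicate 2 was lowest for Txnrd1 at 84.0 TPM against 87.1 to 87.6 TPM.

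The daily rhythm differed between the regimens, by limma's interaction test, for Nqo1 (adjusted p = 0.000207), Gclm (0.00255), Nfe2l2 (0.0071), Gsr (0.0323) and Txnrd1 (0.0492). Nqo1 and Gclm stayed past the threshold whichever replicate number was left out of every group.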

How the results depend on the processing

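The 49 calls of the 9 genes were recomputed under each alternative. All 49 held with a pseudocount of 0.1 TPM, a minimum mean of 5 TPM, and without the NRF ZT24 library with no number. Without a filter 4 were lost, with median-of-ratios rescaling 3, with log2(CPM + 1) 3, with the medulla marker sum as a covariate 2 and with the deposited values as they are 7, and 1 more (the phase difference of Nfe2l2) changed sign with rescaling, log2(CPM + 1) and the deposited values. Rescaling and log2(CPM + 1) each added 14 calls, the deposited values 7 and the medulla covariate 13. No mesor difference was called in the first place, and 1 was with rescaling, 1 with the deposited values, 1 with log2(CPM + 1) and 2 with the medulla covariate, which also called 1 component of 12 h under NRF in place of 0. Over all genes the component of 12 h under NRF was called for 79 genes, and for 142 with rescaling, 153 with log2(CPM + 1), 219 with the medulla covariate and 25 with the replicate block. The medulla covariate also moved the calls at ZT16 from 711 to 1777 and of the mesor from 1200 to 1927, and a mean of at least 5 TPM those between ZT24 and ZT0 under NRF from 67 to 31. With rescaling the share of higher calls over all genes moved from 38.7% to 52.5% at ZT0, from 36.6% to 49.3% at ZT16, from 63.6% to 48.8% at ZT20, from 32% to 48.6% at ZT24, from 18.3% to 48.1% at 16 h after food, from 23.7% to 43.8% at the end of the meal, from 74.8% to 57.7% at 4 h, from 58.9% to 47.5% at 8 h and from 27.9% to 46.8% for the mesor.

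Same-numbered mice of different groups had a median correlation of deviations of -0.005 over 351 pairs, differently numbered ones 0.005, and 12 of 55 mice were closest to their own number, so the numbers were not taken as pairs. A replicate block, fitted without the library with no number, kept all 49 calls and added 1 (Gclm at 16 h after food, adjusted p = 0.0416), giving 18 meal-time calls, 13 at clock time, 5 differential rhythms, 5 and 6 rhythms under NRF and DRF, 0 and 3 components of 12 h, 0 mesor differences and 0 between ZT24 and ZT0.

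Leaving out 1 replicate number, or the library with no number, left 2 to 5 rhythms under NRF, 4 to 6 under DRF and 3 to 5 differential rhythms. Components of 12 h numbered 0 to 1 under NRF and 1 to 3 under DRF. There were 9 to 17 calls at meal time, 0 mesor differences and 0 between ZT24 and ZT0. Calls at clock time numbered 4 to 14. Only for these was each numbered library also left out singly, in the comparison at its own time point. The tests then have fewer mice.

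The phase difference of Nfe2l2 was -9.25 h, not given with its rhythm because the NRF amplitude is under its SE. It was 7.25 h with rescaling, 6.10 h with the deposited values and 6.33 h with log2(CPM + 1). Without the library with no number it was -9.95 h. Without replicates 1, 2, 3 and 4 it was -6.99, -8.71, 6.05 and 7.37 h. Phase differences are circular, so these values do not form a range. At 16 h after food the difference of Nfe2l2 (0.041) was -0.0095 with the medulla covariate, -0.044 to 0.13 without single replicates, 0.15 with rescaling (adjusted p = 0.0412) and 0.16 with log2(CPM + 1) (0.0214), and that of Keap1 (-0.13) was 0.000187 with the deposited values. The ZT12 difference of Gsr (-0.14) was -0.41 to 0.023 without single replicates. Of these, only the rhythm of Nfe2l2 had passed the test. The cause of these changes was not tested.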
